A study of Mus musculus with 8 samples.

Results

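The BCL2 family sets the threshold at which a cell dies by the mitochondrial route. Its survival members hold the outer mitochondrial membrane closed, its pore formers open it, and another class, the BH3-only proteins, binds survival members or pore formers when a cell is stressed or deprived of growth factors. In the erythroid lineage, survival of late precursors is known to depend on erythropoietin and on BCL-XL, the product of Bcl2l1. The genes described here were 10 members of the family with opposite roles, measured in E14.5 mouse fetal livers with and without EKLF (KLF1), the erythroid zinc finger factor that binds CACCC boxes. The survival members were Bcl2l1, Bcl2, Mcl1 and Bcl2l2, and the death members were Bcl2l11, Bad, Bid, Bak1, Bmf and Bik. They were taken as all probe sets whose only platform gene symbol is one of these names, which gave 37 of the 45101 probe sets on the array, or 10 of 18194 named genes.

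Gene expression was profiled on Affymetrix arrays in 4 KO embryos (Eklf-/-, titled replicates 2 to 5) and 4 WT embryos (replicates 1 to 4), with 1 array per embryo. KO embryos came from B6 lines with a homozygous Eklf knockout, for which the study used a BAC construct with an engineered locus and E2A-Cre mice, and nothing further is given of the WT line. Whole livers were used, without culture, so that fewer cells of a type and less RNA per cell cannot be told apart in any value below. Each genotype carries a title code of its own, and preparation and genotype cannot be told apart. Signals are MAS5.0 intensities, given here as log2, and a change is the KO mean minus the WT mean. A probe set was tested with limma where its KO or WT mean was above a signal of 100, and was called at a Benjamini-Hochberg adjusted p under 0.05 over all 23379 tested probe sets.

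The targeted gene checked the labels. Klf1 (1418600_at) was at 10.81, 10.56, 10.65 and 10.59 in KO arrays, against 14.04, 13.87, 13.98 and 13.90 in WT arrays (adjusted p = 5.89e-07, limma). Median signal was 96.7 to 114.0 in KO arrays and 79.5 to 84.1 in WT arrays, and the median change over all tested probe sets was 0.17, so that a change of 0.17 is the middle of the array. Scaling mattered here. That median was -0.01 after quantile normalization, -0.10 after 75th percentile scaling, 0.24 after scaling to the poly-A controls and 0.92 after scaling to the hybridisation controls, whose own mean was lower by 0.75 in KO arrays. Of the calls, 66.0% were higher in KO on the deposited scale, against 51.1%, 41.9%, 77.5% and 96.8% under these 4 scalings in the same order. Summed linear signal of the erythroid markers was 33830 to 36600 in KO arrays and 85780 to 91150 in WT arrays, with 6 of 6 tested markers lower (4 of 6 with hybridisation control scaling) and Hba-a1 below 100 in both genotypes. Hepatocyte markers summed to 142700 to 176300 in KO arrays and 221700 to 245900 in WT arrays (6 of 9 lower, 1 higher, but 0 lower and 1 higher with quantile normalization, and 0 lower and 3 higher with hybridisation control scaling). Endothelial markers summed to 7974 to 9775 in KO arrays and 6164 to 6632 in WT arrays (8 of 10 higher, but 5 higher with quantile normalization, and 5 higher and 1 lower with 75th percentile scaling). Megakaryocyte markers summed to 31470 to 40460 in KO arrays and 25520 to 28700 in WT arrays (7 of 9 higher, 9 with quantile normalization and 6 with 75th percentile scaling). Macrophage markers summed to 11500 to 21900 in KO arrays and 16630 to 20390 in WT arrays (1 of 10 lower, 5 higher and 1 lower with hybridisation control scaling, and 6 lower with 75th percentile scaling). Granulocyte and mast cell markers summed to 46880 to 112100 in KO arrays and 45040 to 52720 in WT arrays (2 of 10 higher, and 8 with hybridisation control scaling). KO replicate 5 alone made the upper end of both KO ranges. The other KO arrays lay between 11500 and 15050 for macrophage markers, below every WT array. For granulocyte and mast cell markers they lay between 46880 and 55600. Lymphoid markers summed to 415 to 680 in KO arrays and 568 to 883 in WT arrays, with 1 of 3 tested lower and Cd79a, Vpreb1, Rag1, Rag2, Cd3e and Pax5 below 100 in both. The 3′ minus 5′ log2 signal of Actb, a measure of RNA quality, was 0.49 to 0.61 in KO arrays and 0.76 to 0.93 in WT arrays (exact permutation p = 0.029). The same measure for Gapdh overlapped, at -0.23 to -0.16 in KO arrays and -0.20 to -0.08 in WT arrays (exact permutation p = 0.4). The part of these cell types and of RNA quality in the changes of the BCL2 family was not tested.

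EKLF binds CACCC boxes, so the start regions of the members are shown first. RefSeq (GRCm38.p6) gave windows of 250 bases before to 50 bases after the gene start for 9 of the 10 members, 15 windows in all. The letters CACCC, on either strand, were found in 10 of the 15 windows (66.7%), against 57.5% of all 32851 windows of the same length. A longer EKLF consensus, CCNCNCCCN on either strand, was in 9 (60%, against 49.4% of all), and its matches overlapped CACCC matches in the windows of Bcl2l1, Bcl2l11 and Bmf. The GATA motif AGATAA was in 1 window, of Bcl2l1 (6.67%, against 11.2% of all). The 250 bases before the start are printed for 2 death members with called probe sets higher in KO livers, Bcl2l11 and Bid, and for 2 members with called probe sets lower in KO livers, Mcl1 and Bad. Each is the window of the gene with the most CACCC matches, and capitals mark CACCC or its reverse complement GGGTG.
Bcl2l11, chr2:128125788-128126037 (+ strand): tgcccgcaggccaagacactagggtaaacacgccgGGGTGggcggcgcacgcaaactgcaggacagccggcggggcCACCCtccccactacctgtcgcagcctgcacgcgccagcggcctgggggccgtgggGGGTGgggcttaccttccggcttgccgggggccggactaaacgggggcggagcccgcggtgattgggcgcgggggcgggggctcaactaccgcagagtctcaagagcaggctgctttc
Bid, chr6:120916825-120917074 (- strand): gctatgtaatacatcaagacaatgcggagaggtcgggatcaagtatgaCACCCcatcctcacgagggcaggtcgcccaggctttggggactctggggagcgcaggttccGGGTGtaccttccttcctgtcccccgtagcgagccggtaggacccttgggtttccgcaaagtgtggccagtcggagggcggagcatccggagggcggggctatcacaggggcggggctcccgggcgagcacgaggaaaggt
Mcl1, chr3:95658471-95658720 (+ strand): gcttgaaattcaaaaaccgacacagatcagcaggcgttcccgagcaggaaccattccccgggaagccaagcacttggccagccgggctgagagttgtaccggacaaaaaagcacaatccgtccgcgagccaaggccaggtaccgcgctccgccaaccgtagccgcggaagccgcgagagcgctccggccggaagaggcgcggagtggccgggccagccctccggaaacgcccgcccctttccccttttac
Bad, chr19:6942312-6942561 (+ strand): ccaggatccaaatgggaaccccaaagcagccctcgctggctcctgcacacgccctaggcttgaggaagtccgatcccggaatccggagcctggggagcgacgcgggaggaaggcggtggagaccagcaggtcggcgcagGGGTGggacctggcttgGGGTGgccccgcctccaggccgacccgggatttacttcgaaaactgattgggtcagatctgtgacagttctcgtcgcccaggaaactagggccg
The Bcl2l11 stretch held 3 matches, the stretches of Bid and Bad held 2 each, and that of Mcl1 held 0. Windows of members higher in KO livers and of members lower in KO livers thus both included CACCC matches. Bcl2 and Bak1 also had none in their windows.

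Of the 37 member probe sets 25 were tested, and 16 of these were called (64%, where 52.2% of all tested probe sets were called). Calls higher in KO livers numbered 9 (36.0% of the members tested, 34.4% of all tested) and calls lower numbered 7 (28.0%, against 17.7% of all tested). Every KO array was above every WT array in 10 of the 25 and below in 7, where 32.4% and 17.4% of all tested probe sets did so. The other 12 member probe sets were below a signal of 100 in both genotypes, among them all 3 of Bik. In 3 called probe sets, 1 each of Bcl2, Bcl2l11 and Bak1, only the KO mean passed 100, so that a difference was built into their passing. Among survival members, 2 of 12 tested probe sets were higher, 5 were lower and 5 were not called. Among death members, 7 of 13 were higher, 2 were lower and 4 were not called.

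**Figure D1:**
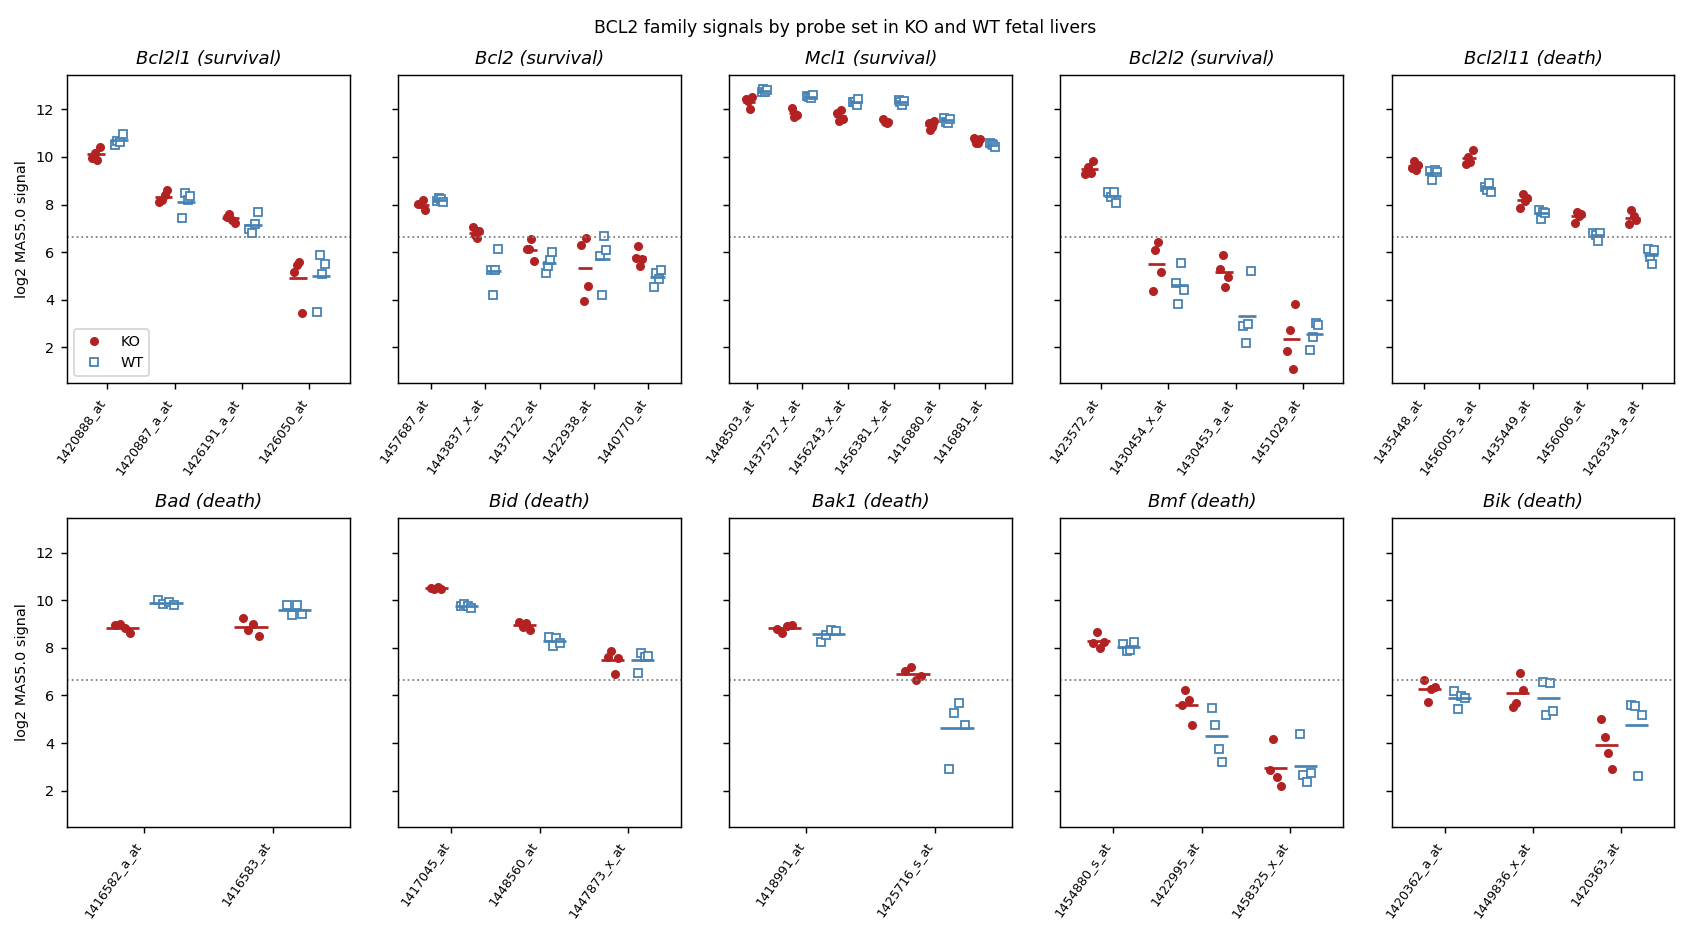
Log2 MAS5.0 signal (y axis) of all 37 member probe sets (x axis) in the 4 KO arrays (filled circles, left) and the 4 WT arrays (open squares, right), with bars for group means and a dotted line at a signal of 100. KO arrays sit wholly above WT arrays in all 5 Bcl2l11 probe sets and wholly below in both Bad probe sets, and all 3 Bik probe sets have both group means under the line.

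Among the survival genes, Bcl2l1 was lower in KO livers on its brightest probe set, whereas its other probe sets were not called. Bcl2l1 encodes BCL-XL, which keeps maturing erythroid cells alive. Its brightest probe set, 1420888_at, was at 9.95, 10.18, 9.88 and 10.42 in KO arrays, against 10.51, 10.68, 10.64 and 10.97 in WT arrays. All 4 KO arrays were below all 4 WT arrays. The change was -0.59 ± 0.15 (SE, n = 4 each), or 1.51-fold lower, with an adjusted p of 0.0110 (limma), but it was 0.16 with hybridisation control scaling. Probe set 1420887_a_at was at 8.13, 8.19, 8.41 and 8.62 in KO arrays and at 7.44, 8.49, 8.17 and 8.37 in WT arrays. The genotypes overlapped there, and the change of 0.22 was not called (adjusted p = 0.443). Probe set 1426191_a_at was at 7.49, 7.61, 7.37 and 7.21 in KO arrays and at 6.99, 6.79, 7.16 and 7.70 in WT arrays, with a change of 0.26 (adjusted p = 0.281). Without WT replicate 4, its highest WT array, that change was 0.44 and was called (adjusted p = 0.0397). Relative to 1420888_at within the same arrays, the change of 1420887_a_at was higher by 0.81 and that of 1426191_a_at by 0.86, a quantity that no shift of a whole array can alter. The exact permutation p was 0.029 for each, the smallest that 70 assignments can give, and 0.051 after adjustment over the 16 such probe set pairs of all members. Of these pairs 3 have a WT mean below 100 and are not read here. All 3 stood at that smallest p and were kept in the adjustment, which makes each adjusted value of 0.051 smaller than without them. The fourth Bcl2l1 probe set, 1426050_at, was below 100 in both genotypes.

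Mcl1, a short-lived survival protein needed by blood progenitors, was lower in KO livers on 4 of its 6 probe sets. Its brightest, 1448503_at, was at 12.45, 12.33, 12.00 and 12.51 in KO arrays, against 12.72, 12.87, 12.72 and 12.82 in WT arrays. The KO arrays were all lower, with a change of -0.46 ± 0.13 (SE, n = 4 each; adjusted p = 0.0159, limma). That call was lost with quantile normalization, poly-A scaling, no filter, the methods' t-test after adjustment and the replicate block, and its change was 0.29 with hybridisation control scaling. The clearest separation was on 1456381_x_at, at 11.60, 11.47, 11.42 and 11.48 in KO arrays and 12.37, 12.32, 12.18 and 12.33 in WT arrays. It was 1.75-fold lower (change -0.81 ± 0.09, adjusted p = 0.000193), and was at -0.06 with hybridisation control scaling. Probe sets 1437527_x_at (-0.70, adjusted p = 0.000855) and 1456243_x_at (-0.57, adjusted p = 0.00544) were lower too, and stood at 0.05 and 0.18 with that scaling. With poly-A scaling 1456243_x_at was at -0.50 and not called (adjusted p = 0.0768). An x_at suffix marks probe sets some of whose probes match other transcripts, so these 3 are less certain as measures of Mcl1. The same limit applies to the tested probe sets Bcl2 1443837_x_at and Bid 1447873_x_at. Neither Mcl1 probe set 1416880_at (-0.20, adjusted p = 0.166) nor 1416881_at (0.17, adjusted p = 0.172) was called on the deposited scale. With 75th percentile scaling 1416880_at was called lower (-0.47, adjusted p = 0.00895, limma). With hybridisation control scaling both were called higher (0.55, adjusted p = 0.0109, and 0.91, adjusted p = 0.000173). On 1416881_at the KO arrays were at 10.78, 10.60, 10.60 and 10.74 and the WT arrays at 10.60, 10.53, 10.50 and 10.42, so that the genotypes overlapped. Its change exceeded that of 1448503_at by 0.62, with KO and WT arrays apart in this within-array difference (exact permutation p = 0.029, adjusted 0.051).

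Bcl2, which gives the family its name and protects lymphoid and progenitor cells, was not called on its brightest probe set. Probe set 1457687_at was at 8.03, 8.03, 8.19 and 7.76 in KO arrays, against 8.16, 8.27, 8.22 and 8.13 in WT arrays (-0.19 ± 0.11, adjusted p = 0.183). That outcome moved with the scaling. It was called lower with quantile normalization (-0.57, adjusted p = 0.00486, limma) and 75th percentile scaling (-0.46, adjusted p = 0.0105). With hybridisation control scaling it was called higher (0.56, adjusted p = 0.00596). The second tested probe set, 1443837_x_at, was at 7.04, 6.74, 6.58 and 6.87 in KO arrays, against 5.25, 4.19, 5.25 and 6.13 in WT arrays. All KO arrays were above all WT arrays. Since the WT mean was below 100 the level was at least 1.12-fold higher (adjusted p = 0.00495, limma), and with the methods' t-test the adjusted p was 0.0566. The 3 remaining Bcl2 probe sets were below 100 in both genotypes.

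Bcl2l2 was higher in KO livers on its only tested probe set, and was the only survival gene called higher on its brightest. It encodes BCL-W, a survival protein of many tissues. Probe set 1423572_at was at 9.26, 9.56, 9.33 and 9.83 in KO arrays, against 8.53, 8.32, 8.51 and 8.05 in WT arrays. The lowest KO array exceeded the highest WT array, and the level was 2.21-fold higher (1.15 ± 0.16, SE, n = 4 each; adjusted p = 0.000552, limma). The call held in all 21 alternatives run, with changes between 0.88 and 1.89. Its 3 other probe sets were below 100 in both genotypes.

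Among the death genes, Bcl2l11 was higher in KO livers on 4 of 5 probe sets, and on all 5 every KO array was above every WT array. Bcl2l11 encodes BIM, a BH3-only protein that binds all survival members and is held down by growth factor signalling. Probe set 1456005_a_at was at 9.68, 10.00, 9.77 and 10.30 in KO arrays, against 8.74, 8.60, 8.92 and 8.54 in WT arrays. This was a 2.36-fold difference (1.24 ± 0.16, SE, n = 4 each; adjusted p = 0.000303, limma), present in all 21 alternatives (0.97 to 1.99). The brightest probe set, 1435448_at, was at 9.53, 9.85, 9.47 and 9.65 in KO arrays and 9.40, 9.05, 9.46 and 9.37 in WT arrays. The highest WT array there was just under the lowest KO array, and the change of 0.30 was not called (adjusted p = 0.0798). Probe set 1426334_a_at was at 7.17, 7.78, 7.51 and 7.34 in KO arrays and at 6.12, 5.79, 5.51 and 6.10 in WT arrays. Its WT mean was below 100, so that it was at least 1.75-fold higher (adjusted p = 0.000173). Probe sets 1456006_at (0.79, adjusted p = 0.00147) and 1435449_at (0.56, adjusted p = 0.0135) were also higher, the second losing its call with quantile normalization, 75th percentile scaling and no filter. The changes of 1456005_a_at and 1456006_at exceeded that of 1435448_at by 0.93 and 0.49 in the same arrays, with KO and WT arrays apart in both (exact permutation p = 0.029, adjusted 0.051).

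Bid was higher in KO livers on 2 of 3 probe sets. BID is cut by caspase-8 and so carries the signal of death receptors to mitochondria. Probe set 1417045_at was at 10.51, 10.46, 10.57 and 10.46 in KO arrays, against 9.78, 9.85, 9.74 and 9.69 in WT arrays. These were the tightest replicates of any tested member in KO livers (SD 0.05, n = 4) and showed a 1.66-fold difference (0.73 ± 0.09, adjusted p = 0.000254, limma). The second, 1448560_at, was at 9.07, 8.89, 9.06 and 8.77 in KO arrays and 8.44, 8.09, 8.43 and 8.21 in WT arrays (0.66, adjusted p = 0.00242). The genotypes did not overlap on either, but with quantile normalization 1448560_at was at 0.36 and was not called (adjusted p = 0.0506). The third, 1447873_x_at, showed no clear direction (-0.01, adjusted p = 0.974).

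Bad moved against the other called death genes and was lower in KO livers on both of its probe sets. BAD is a BH3-only protein kept inactive by 14-3-3 proteins while growth factor signals phosphorylate it. Probe set 1416582_a_at was at 8.95, 9.0, 8.82 and 8.63 in KO arrays, against 9.99, 9.84, 9.93 and 9.78 in WT arrays. No KO array came near the WT range, and the level was 2.05-fold lower (-1.04 ± 0.11, SE, n = 4 each; adjusted p = 0.000140, limma), with -0.29 (adjusted p = 0.0660) under hybridisation control scaling. Probe set 1416583_at was at 9.27, 8.76, 9.01 and 8.50 in KO arrays and 9.81, 9.39, 9.80 and 9.42 in WT arrays (-0.72, adjusted p = 0.0108), and at 0.03 under that scaling. Its call was also lost with poly-A scaling (-0.65, adjusted p = 0.0518) and with the replicate block (-0.53, adjusted p = 0.124). KO replicates 2 and 4 were the higher KO arrays on this probe set, but remained below every WT array.

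The pore former Bak1 and the BH3-only gene Bmf were tested but not called on their brightest probe sets, and Bik was not tested. Bak1 probe set 1418991_at was at 8.81, 8.61, 8.93 and 8.94 in KO arrays and 8.25, 8.54, 8.76 and 8.71 in WT arrays, overlapping (0.26, adjusted p = 0.152). Its second probe set, 1425716_s_at, was at 7.02, 7.21, 6.63 and 6.80 in KO arrays against 2.92, 5.27, 5.67 and 4.75 in WT arrays. The WT mean was far below 100, the level was at least 1.21-fold higher (adjusted p = 0.00633, limma), and the methods' t-test gave an adjusted p of 0.0675. Bmf, whose protein is bound to the cytoskeleton until cells are stressed, was at 8.19, 8.68, 8.01 and 8.25 in KO arrays and 8.16, 7.86, 7.92 and 8.23 in WT arrays on 1454880_s_at (0.24, adjusted p = 0.236). Both genotypes covered much the same range there. Bik, another BH3-only gene, was at 6.65, 5.73, 6.28 and 6.35 in KO arrays and 6.19, 5.45, 5.98 and 5.89 in WT arrays on 1420362_a_at. All of these were near or below the filter, and no level of Bik could be compared.

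**Figure D2:**
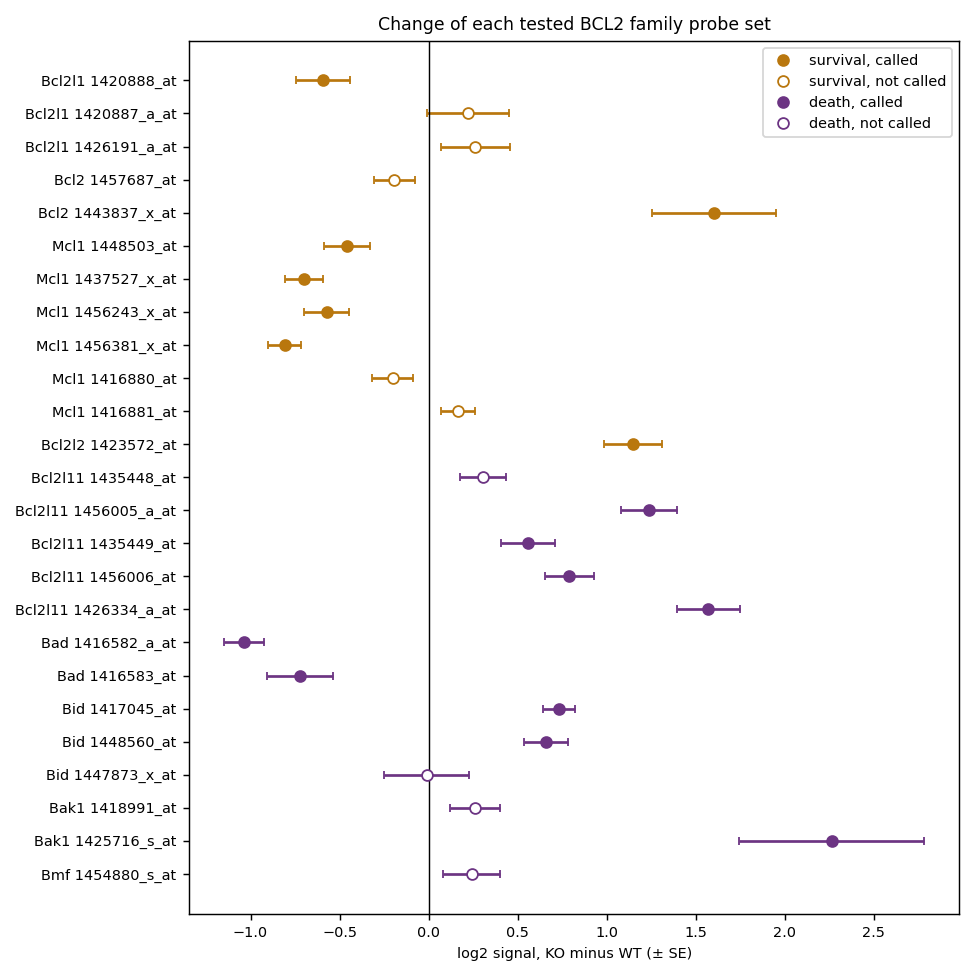
Change in log2 signal, KO minus WT (x axis), with its SE for each of the 25 tested member probe sets (y axis), survival members in orange and death members in purple, filled where called. Called survival probe sets lie on both sides of 0, with Bcl2l2 at 1.15 and Mcl1 down to -0.81 (-0.06 with hybridisation control scaling), and of the called death probe sets only those of Bad lie below 0 (1416583_at at 0.03 with that scaling).

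With each gene taken at its brightest probe set, 9 members were tested, of which 2 were higher (Bid, Bcl2l2), 3 were lower (Bcl2l1, Mcl1, Bad) and 4 were not called. Over all 11275 genes tested in this way 25.5% were higher and 21.0% lower. The median change was -0.33 over the 4 survival genes and 0.26 over the 5 tested death genes, beside 0.06 over all genes. The death median was the change of Bak1, which was not called. The survival median lay between Bcl2 (-0.19, not called) and Mcl1 (-0.46). In each class the gene with the largest change went against the median, Bcl2l2 at 1.15 and Bad at -1.04. The gap between the classes was -0.59. In single arrays, set against the WT mean of each gene, the gap was -0.46, -0.83, -0.54 and -0.61 in KO arrays, against -0.12, 0.07, -0.06 and -0.07 in WT arrays. On the deposited scale, the survival median of every KO array was below, and its death median above, that of any WT array. The class medians move with the scaling. The death median was -0.036 with quantile normalization and -0.0073 with 75th percentile scaling, and the survival median was 0.42 with hybridisation control scaling. A shift of whole arrays leaves the gap as it is, and it was -0.36 with quantile normalization. It was -0.13 when the mean of all tested probe sets of a gene was used, with class medians of 0.33 and 0.46, and so differed with the probe sets that stood for a gene. That mean takes in the 3 probe sets that passed 100 only in KO livers, of Bcl2 (1.60), Bcl2l11 (1.57) and Bak1 (2.26). A difference was built into those, so the part of probe set choice in the gap cannot be read from it.

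**Figure D3:**
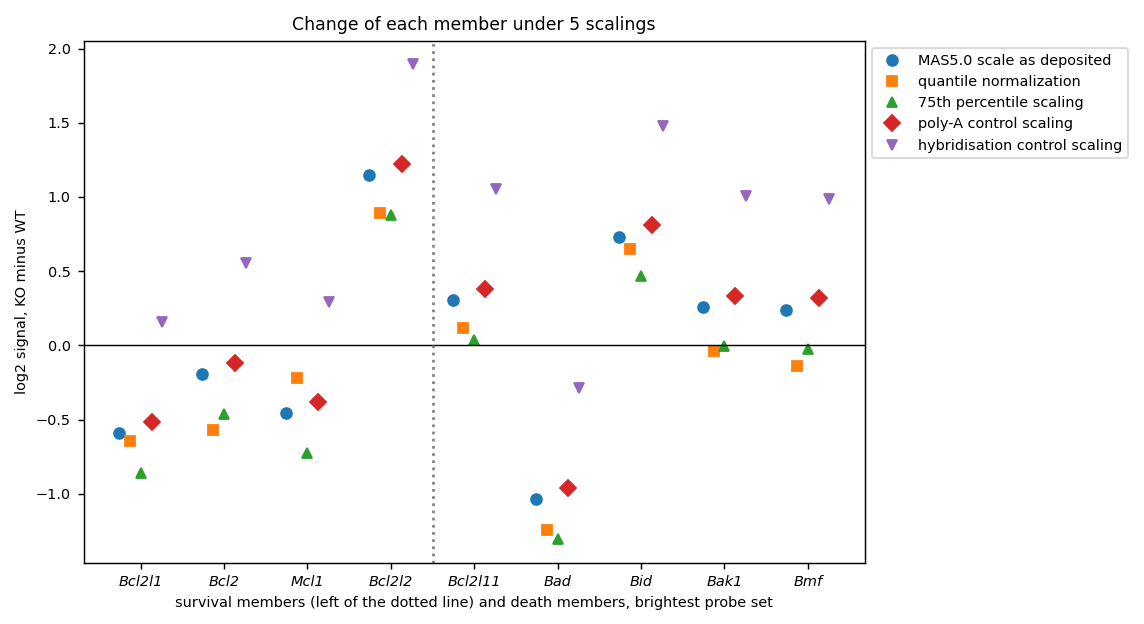
Change in log2 signal, KO minus WT (y axis), of the brightest probe set of each of the 9 tested members (x axis) on the deposited scale and under 4 other scalings of the arrays (marker shapes). Bcl2l2, Bcl2l11 and Bid stay above 0 and Bad below 0 under all 5, whereas Bcl2l1, Bcl2 and Mcl1 lie below 0 under 4 and above 0 with hybridisation control scaling.

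The KO embryos were not alike. On 4 of 5 Bcl2l11 probe sets and on 1423572_at of Bcl2l2, KO replicates 3 and 5 were both above KO replicates 2 and 4. On both called Bid probe sets they were both below. Counted over the tested members, this order was found in 7 of 25 probe sets (28.0%) and its reverse in 5 (20.0%), where 26.8% and 29.2% of all tested probe sets showed them.

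The genes whose brightest probe sets followed Bcl2l1 most closely over the 8 arrays were Pag1 (Pearson r = 0.970), Cldn34c1 (0.969), Cep85 (0.964), Myo18a (0.963) and Syne4 (0.961), among 128 of 11274 genes above 0.9. For Bcl2l11 they were Rbsn (0.977), Sytl4 (0.969), Frem1 (0.960), Angptl6 (0.960) and Nsun6 (0.958), among 57 genes above 0.9. The 8 points are 2 genotypes, so that a common difference between KO and WT enters each r, which is given as a description.

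Other genes of the pathway were counted by the same fit on their brightest probe sets. Over all genes tested in this way 25.5% were higher and 21.0% lower on the deposited scale. Of all 23379 tested probe sets, 18139 were higher and 603 lower with hybridisation control scaling. With 75th percentile scaling 5213 were higher and 7230 lower, and with quantile normalization 5608 and 5364. The list counts are given beside these as a description. Of the 12 tested further relatives of the family, 3 were higher in KO livers and 3 were lower (median 0.14). Bnip3, a BH3-like gene of mitochondrial turnover, was at 13.21, 13.95, 13.38 and 13.88 in KO arrays, against 11.67, 11.42, 11.41 and 11.39 in WT arrays (2.13, adjusted p = 3.61e-05, limma). It lay well apart in all KO arrays, with replicates 3 and 5 highest. Bbc3, which encodes the BH3-only protein PUMA, was at 8.50, 9.65, 8.76 and 9.78 in KO arrays and 7.54, 7.78, 7.54 and 8.03 in WT arrays (1.45, adjusted p = 0.00340). Bcl2l15 averaged 5.09 in KO arrays and 7.10 in WT arrays (adjusted p = 0.000322), and the BH3-only gene Hrk averaged 5.43 in KO arrays and 6.68 in WT arrays (adjusted p = 0.0238). Both were called lower, but both KO means were below 100. Only their WT means passed the filter, so that a difference was built into their passing. The WT arrays of Hrk were themselves near the filter, at 6.62, 6.46, 6.61 and 7.03. With hybridisation control scaling 9 of the 12 were higher and 1 was lower, Hrk losing its call, and with 75th percentile scaling 2 were higher and 4 lower (median -0.13).

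Downstream of the mitochondria, 3 of the 16 tested genes of the apoptosome, caspases and their inhibitors were higher and 6 were lower (median -0.12), which turned to 10 and 1 (median 0.62) with hybridisation control scaling and to 0 and 9 (median -0.39) with 75th percentile scaling. The caspase inhibitors Birc2 (0.57, adjusted p = 0.0200) and Xiap (0.45, adjusted p = 0.00812) were among those higher in KO livers. Neither was called with 75th percentile scaling (Birc2 at 0.30, adjusted p = 0.144, and Xiap at 0.18, adjusted p = 0.170), and Birc2 was not called with quantile normalization (adjusted p = 0.0589). Htra2, a mitochondrial protease that relieves such inhibitors, was lower (-1.15, adjusted p = 0.000502), and Birc5, a mitotic member of the inhibitor family, changed by -1.14 (adjusted p = 4.16e-05). The call of Htra2 was lost with hybridisation control scaling (-0.40, adjusted p = 0.0920). In the death receptor branch, where BID acts, 3 of 6 tested genes were higher and 1 was lower (median 0.23). With quantile normalization and with 75th percentile scaling 2 were higher and 1 was lower (medians 0.00056 and -0.034), and with hybridisation control scaling 5 were higher and 0 lower (median 0.98). Cflar, which blocks caspase-8, was higher (1.07, adjusted p = 0.000415), as was the receptor gene Tnfrsf1a (0.70, adjusted p = 0.00464), whereas its adaptor gene Tradd was lower (-0.72, adjusted p = 0.00706) but stood at 0.03 with hybridisation control scaling. Casp8 itself was not called (0.03, adjusted p = 0.858).

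Among 11 mitochondrial channels and partners of BAK and BAD, 0 were higher and 5 were lower (median -0.29), but 1 was higher and 0 were lower after quantile normalization, 0 were called with poly-A scaling, 10 were lower with 75th percentile scaling and 9 were higher with hybridisation control scaling. The lowest of them were Ywhaq (-0.55, adjusted p = 0.00441), one of the 14-3-3 genes, and Slc25a5 (-0.43, adjusted p = 0.0161), an adenine nucleotide carrier. With hybridisation control scaling Ywhaq stood at 0.20 and Slc25a5 at 0.32. Of 16 regulators that act upstream of the family, 4 were higher and 4 were lower (median 0.06), where 25.5% and 21.0% of all genes were. The counts were 12 higher and 0 lower with hybridisation control scaling, and 1 higher and 7 lower (median -0.20) with 75th percentile scaling. Epor, the erythropoietin receptor, was at 10.83, 10.68, 10.61 and 10.55 in KO arrays, against 11.63, 11.47, 11.52 and 11.48 in WT arrays (-0.86, adjusted p = 0.000216). Stat5a, which acts below that receptor, was higher (0.48, adjusted p = 0.0126), but was not called with quantile normalization (0.22, adjusted p = 0.189) or 75th percentile scaling (0.21, adjusted p = 0.196). The cell cycle factor E2f1 was lower (-1.04, adjusted p = 0.000297), and was not called with hybridisation control scaling, nor was Epor. Ddit3, which encodes the stress factor CHOP, was at 9.66, 11.31, 10.01 and 11.66 in KO arrays against 9.10, 9.01, 9.06 and 9.18 in WT arrays (1.57, adjusted p = 0.0117). All KO arrays were above WT, and KO replicates 3 and 5 were far above the other KO arrays.

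**Figure D4:**
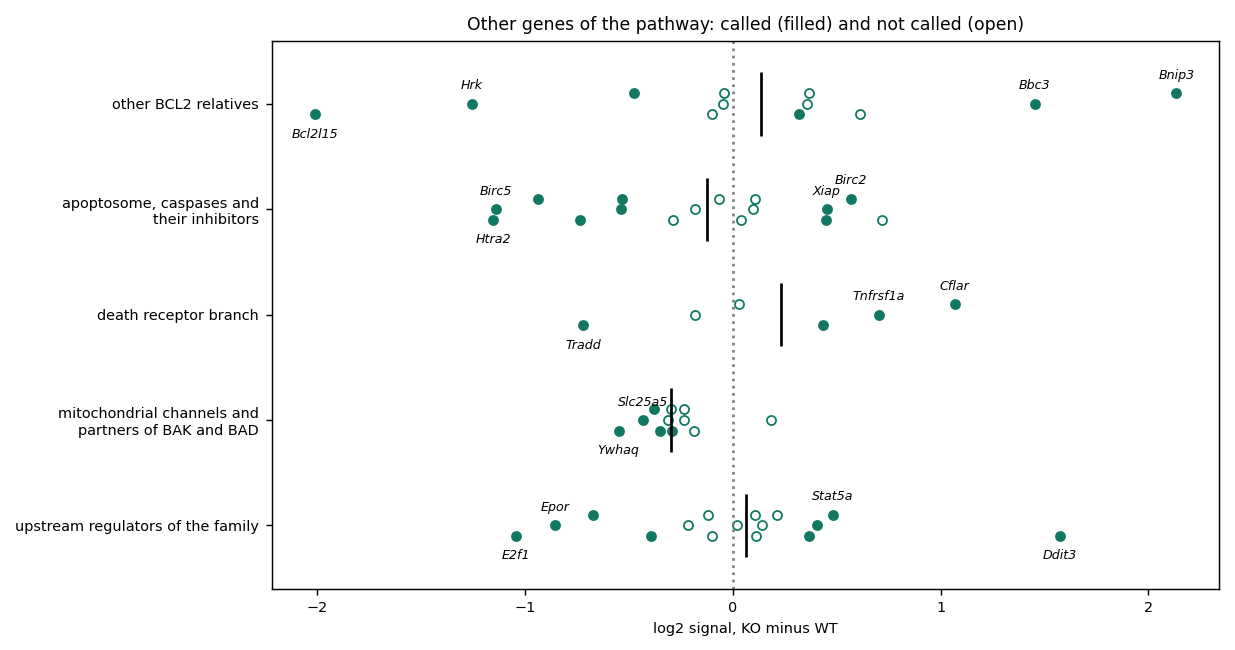
Change in log2 signal, KO minus WT (x axis), of the tested genes of 5 pathway lists (rows, with no meaning to height within a row), filled where called, with a bar at each list's median. The channels and partners of BAK and BAD have their median at -0.29 on the deposited scale (0.45 with hybridisation control scaling, 0.02 with quantile normalization), and Bnip3 (2.13), Ddit3 (1.57) and Bbc3 (1.45) are the named genes farthest to the right.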

How the data were processed

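Total RNA of whole E14.5 fetal livers from 4 KO and 4 WT embryos was hybridized to Affymetrix mouse arrays by the authors, 1 array per embryo. Each deposited value is a linear MAS5.0 intensity computed by the authors, and in each array the mean of the values without the extreme 2% at either end is 500. MAS5 and R 3.0.2 are credited to the processing notes of the submitters. Of the 45101 probe sets, 34945 have 1 platform gene symbol, 932 have several and were not used to name a gene, and 64 are control probe sets, which were left out of the tests.

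Log2 intensities were used without a pseudocount. Testing was limited to a KO or WT mean above 100 and used limma 3.58.1 (lmFit and eBayes, genotype only, two-sided) in R 4.3.3, with Benjamini-Hochberg adjustment over 23379 probe sets and a threshold of 0.05. The fit was checked on simulated data. Where a group mean was below 100 the fold was taken against 100. A gene's brightest probe set has the highest mean over the 8 arrays. Single values were compared by two-sided exact permutation tests over 70 assignments. Tables, motifs and plots were made with Python 3.11.15, pandas 2.3.3, numpy 2.4.6, scipy 1.17.1 and matplotlib 3.10.9. Alternatives were 4 scalings, pseudocounts of 16 and 64, 3 filters, limma with trend and robust options, the methods' t-test, a replicate block and leaving out each array. In the replicate block the change comes only from replicates 2 to 4, the numbers that both genotypes have.

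The text names every member, Klf1, up to 2 called genes with the largest rise and 2 with the largest fall in each pathway list, and the 5 genes most like Bcl2l1 and Bcl2l11. Casp8 was named after its values were seen. Members, lists and tests were chosen with earlier results of these data known. List genes without a probe set of 1 symbol were not analysed here. Any 2 arrays had at most 1 value in common. The study gives 4 embryos per genotype but no litters, and precision is limited by having 4 arrays per genotype.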

Additional observations from a re-analysis of the deposited data

Results flagged for a closer look

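Over 74 groups of 4 arrays, one for each genotype of the 37 member probe sets, 1 array lay far from the others of its genotype. WT replicate 3 was at 2.63 on Bik probe set 1420363_at, where the other WT arrays were between 5.20 and 5.58. All of these values are below a signal of 100, and chance alone marks about 1 in 20 such groups.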

How the results depend on the processing

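The calls of 5 member probe sets held in every alternative that could be run for them. These were Bcl2l2 1423572_at, Bid 1417045_at and Bcl2l11 1456005_a_at, 1456006_at and 1426334_a_at. The filter at a signal of 200 removed Bcl2l11 1456006_at and 1426334_a_at, so their calls could not be tried there and rest on 20 alternatives, not 21. For 1426334_a_at only the KO mean passed 100, so that a difference was built into its passing. No member call was lost by leaving out any 1 array. With quantile normalization, the median change was -0.39 for survival genes and -0.036 for death genes, and the gap -0.36. Bcl2l1 1420887_a_at turned to -0.14, its 1426191_a_at to -0.18, Bak1 1418991_at to -0.036 and Bmf to -0.14. With 75th percentile scaling, the medians were -0.59 and -0.0073, and Bcl2l1 1420887_a_at turned to -0.0465, its 1426191_a_at to -0.0053, Mcl1 1416881_at to -0.10, Bak1 1418991_at to -0.0073 and Bmf to -0.026. With hybridisation control scaling, 18742 probe sets were called in place of 12195, the medians were 0.42 and 1.01, and 7 survival and 11 death probe sets were called higher and 0 of either lower. Then Bcl2l1 1420888_at was at 0.16, Bcl2 1457687_at at 0.56, Mcl1 at 0.29 (1448503_at), 0.049 (1437527_x_at), 0.18 (1456243_x_at) and 0.55 (1416880_at), Bad 1416583_at at 0.027 and Bid 1447873_x_at at 0.74. With poly-A scaling, the survival median was -0.25, 3 survival probe sets and 1 death probe set were called lower, and Bid 1447873_x_at was at 0.065. With the mean of a gene's probe sets, the medians were 0.33 and 0.46 and the gap -0.13, the farthest from -0.59 of any alternative run. With poly-A scaling Mcl1 1448503_at and 1456243_x_at and Bad 1416583_at lost their calls.

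A filter on the mean of all arrays, a filter at 200 and the methods' t-test after adjustment each left 1 survival probe set called higher, and the filter at 200 left 4 death probe sets higher. Over all probe sets, the methods' t-test called 9414 after adjustment and 12245 before. The replicate numbers did not pair the samples, since deviations of same-numbered arrays correlated at -0.082 to -0.00084. With the number as a replicate block, 7780 probe sets and 1 lower death probe set were called. Bad 1416583_at and Mcl1 1448503_at lost their calls, and Bcl2l1 1420887_a_at was at -0.10. WT replicate 1 and KO replicate 5 have no array of the same number in the other genotype. The change with this block therefore rests on replicates 2 to 4 alone, and the block and the loss of those arrays cannot be told apart. Leaving out 1 array at a time, 10625 to 12100 probe sets were called, the gap was -0.66 to -0.51, Bcl2l1 1420887_a_at ranged from -0.0055 to 0.345, and Bid 1447873_x_at from -0.19 to 0.18. The scalings differ in where they put the zero of a change. Probe sets near a signal of 100 gave only bounds.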
